A study of Mus musculus with 45 samples.

Results

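The uridine salvage and uracil breakdown enzymes are a set of 10 genes that were chosen by name, *Upp1*, *Upp2*, *Dpyd*, *Dpys*, *Upb1*, *Cda*, *Tymp*, *Uck1*, *Uck2* and *Uckl1*. All 10 were found among the 54838 genes counted in 45 RNA-seq libraries of *PyMT*+ mouse mammary tumour cell lines. These lines carry the polyomavirus middle T antigen, which the MMTV promoter drives in mammary epithelium. There were 15 lines with 3 technical repeats each, and they fell into 2 parental primary tumour lines, YEJG and YEJH, and 13 lines derived from them. Parental line YEJG gave 1 line from a tumour regrown in the mammary fat pad (YEJG-FP) and 2 from lung (YEJG-M1 and YEJG-M2). Parental line YEJH gave 5 fat-pad lines (YEJH-FP1 to YEJH-FP5) and 5 lung lines (YEJH-M1 to YEJH-M5). All lines were sampled as cultures, with no treatment given in the labels. Each origin rests on a single parental line, and the label of YEJH-M3 reads lung metastases where that of the other lung lines reads whole lung. The libraries held 9723860 to 16943900 reads counted on genes.

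Uridine is taken up through nucleoside transporters and has 2 main fates in the cell. Uridine phosphorylase cleaves it into uracil and ribose 1-phosphate, and uridine-cytidine kinases phosphorylate it to uridine monophosphate, which enters the nucleotide pool. Uracil is broken down in sequence by dihydropyrimidine dehydrogenase (*Dpyd*), dihydropyrimidinase (*Dpys*) and beta-ureidopropionase (*Upb1*), and this route is best known from liver. Cytidine deaminase (*Cda*) feeds uridine into the pathway, and thymidine phosphorylase (*Tymp*) cleaves thymidine.

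Stretches of DNA before the start site are shown for *Upp1*, *Uck2* and *Upb1*, which stand for cleavage, phosphorylation and breakdown. Each is the 250 bases before the first start that RefSeq lists, on build GRCm38.p6, read 5′ to 3′ on the strand of the gene, at chr11:9117758-9118007 (plus strand), chr1:167285128-167285377 (minus strand) and chr10:75406661-75406910 (plus strand). Capitals mark exact matches, on either strand, to the AP-1 motif (TGAGTCA) and the GC box (GGGCGG).
Upp1: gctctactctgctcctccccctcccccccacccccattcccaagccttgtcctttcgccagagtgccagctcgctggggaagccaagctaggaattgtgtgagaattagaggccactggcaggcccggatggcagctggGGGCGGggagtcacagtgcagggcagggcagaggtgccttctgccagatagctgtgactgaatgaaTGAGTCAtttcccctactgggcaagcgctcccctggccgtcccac
Uck2: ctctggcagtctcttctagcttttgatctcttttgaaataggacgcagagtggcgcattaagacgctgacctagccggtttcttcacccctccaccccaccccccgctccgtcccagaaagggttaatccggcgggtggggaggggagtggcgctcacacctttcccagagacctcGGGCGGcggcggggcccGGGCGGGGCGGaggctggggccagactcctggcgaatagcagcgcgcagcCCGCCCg
Upb1: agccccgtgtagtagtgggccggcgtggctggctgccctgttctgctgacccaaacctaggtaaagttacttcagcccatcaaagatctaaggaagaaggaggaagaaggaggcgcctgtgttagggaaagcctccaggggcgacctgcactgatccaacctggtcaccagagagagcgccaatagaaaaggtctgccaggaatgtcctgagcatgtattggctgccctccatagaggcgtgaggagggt
The *Upp1* window held 1 AP-1 match, which begins 45 bases before the start, and 1 GC box. RefSeq lists 2 further *Upp1* starts, for which the window before the second start holds these same 2 motifs, with the AP-1 match 140 bases before that start, and the window before the third holds neither. The *Uck2* window held 4 GC box matches, a pair of which share a base, and no AP-1 match. The *Upb1* window held neither. RefSeq windows were found for 9 of the 10 members. Of 32851 promoter windows of this length, 4.46% held the AP-1 letters and 32.7% the GC box letters. None of the 3 windows matched the E box (CACGTG), the CRE (TGACGTCA) or the TATA letters (TATAAA), which 6.02%, 1.55% and 12.4% of all windows held. These are matches of letters, and binding was not measured.

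Set against transcript length, *Uck2* was the most abundant member, and the breakdown enzymes and *Tymp* were low. Levels are normalised read counts, that is, counts scaled by TMM to the mean library, averaged over the 3 repeats of a line, and for comparisons between genes they are divided by the length of the reference transcript in kilobases. *Uck2*, the uridine-cytidine kinase associated with proliferating cells, averaged 1004 normalised counts per kilobase over the 15 lines, which was above 98.0% of 50764 genes. *Uck1*, the more broadly expressed kinase, averaged 235 per kilobase, *Upp1* 216 and the kinase-like *Uckl1* 146. *Cda* followed at 17.9 per kilobase, the second uridine phosphorylase *Upp2* at 7.29, *Upb1* at 1.32 and *Tymp* at 1.26. The share of *Uck2* in the summed per-kilobase level of the 3 kinase genes ran from 68.2% in YEJH-FP4 to 79.6% in YEJG-FP.

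**Figure D1:**
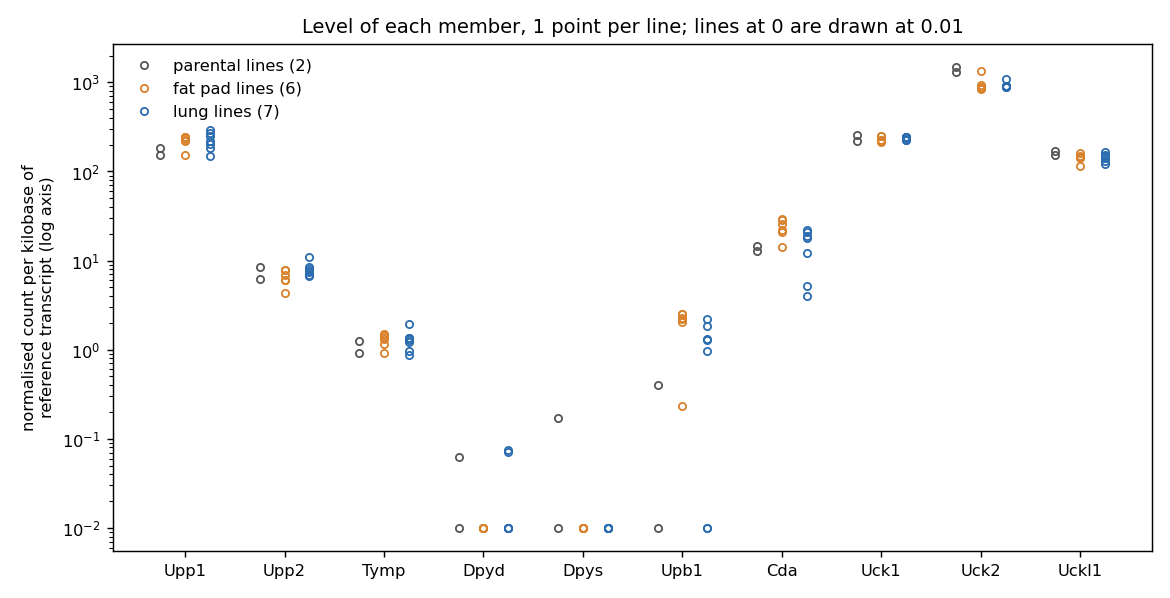
Level of each enzyme gene as normalised counts per kilobase of reference transcript (log axis), 1 point per line, coloured by parental, fat-pad or lung source. *Uck2* lies highest at 849 to 1487, *Upp1*, *Uck1* and *Uckl1* lie between 114 and 292, and *Dpyd* and *Dpys* lie at or near 0, with lines without a read drawn at the foot of the axis.

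The first steps of uracil breakdown were at the limit of detection. *Dpyd* had 3 reads in all 45 libraries, 1 each in single libraries of YEJH, YEJH-M1 and YEJH-M5 (exact Poisson 95% interval 0.619 to 8.77 reads). *Dpys* had 1 read, in YEJH (0.0253 to 5.57 reads). Neither passed the filter on low counts, so that 8 of the 10 members were tested. Such intervals cover counting error only. *Upb1* had 179 reads in total and at least 1 read in 34 of the 45 libraries. *Upp2* and *Tymp* had reads in every library, but at most 21 and 18 in any of them.

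Some members share exonic sequence with other genes, and the counter kept a class for reads that fell on more than one gene, which was left out of the gene counts. Positions are on GRCm39. *Tymp* (chromosome 15, 89251677 to 89261317, minus strand) shares 5313 of its 6569 exonic bases with *Sco2* on the same strand and 3793 with *Ncaph2* on the opposite strand. Because the library kit does not mark strand, reads there cannot be assigned to one gene by orientation. The low level of *Tymp* is uncertain in that respect, since reads from shared bases may be missing from its count. *Upp2* (chromosome 2, 58457282 to 58685857, plus strand) shares 259 bases with *Acvr1*, and *Uckl1* (chromosome 2, 181210926 to 181226685, minus strand) shares 731 with the long non-coding *Uckl1os*. *Upp1* (chromosome 11, 9067953 to 9086370, plus strand) and *Upb1* (chromosome 10, 75236949 to 75279771, plus strand) share no exonic base with another annotated gene, and neither do *Cda*, *Dpyd* and *Dpys*. *Uck2* lies on chromosome 1 at 167050452 to 167112889 on the minus strand and overlaps 2 long non-coding genes over 66 and 436 bases.

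All 5 markers of mammary tumour epithelium (*Epcam*, *Cdh1*, *Krt8*, *Krt18* and *Krt19*) were present in every library, with summed levels of 38224 to 101597 normalised counts per line, and of the basal markers *Krt14* was present and *Krt5* and *Trp63* were near 0 (summed level 1845 to 19302). Markers of other cells were mostly low, with the fibroblast marker *Pdgfra* the exception. Leukocyte markers summed to 28.0 to 94.4, nearly all of it *Cd68* (14.3 to 37.6) and *Csf1r* (5.19 to 68.4), which had reads in every library, with *Cd3e* at 0 throughout and *Ptprc* at 0.282 to 3.48, and neutrophil markers to 10.2 to 74.0, nearly all of it *S100a8*, with *Csf3r* and *Retnlg* at 0 throughout. Lung epithelium markers summed to 1.56 to 6.11 with *Sftpc* and *Sftpb* at 0, endothelial markers to 0.307 to 10.6 and hepatocyte markers to 0 to 2.72. Fibroblast markers summed to 27.2 to 722, most of it *Pdgfra* (26.1 to 595). The other fibroblast markers were *Col1a1* (0.732 to 56.0), *Col1a2* (0.382 to 69.6) and *Dcn* (0 to 2.97). In a bulk sample, fewer cells expressing a gene and less RNA per cell cannot be told apart.

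Lung lines were first set against fat-pad lines, which asks whether cells that had colonised the lung differ from cells that had regrown in the mammary gland. None of the 8 tested members passed, and neither did any other of the 15056 genes (0% called, with 784 genes at an unadjusted p under 0.05, Benjamini-Hochberg adjustment, edgeR's quasi-likelihood test). DESeq2 called 21 genes, none of them a member. *Upp1* had a log2 fold change of 0.0050 (SE 0.15), *Uck2* of -0.045 (SE 0.10), *Uck1* of 0.050 (SE 0.047) and *Uckl1* of 0.015 (SE 0.083). The sign of the *Upp1*, *Uck2* and *Uckl1* values changed when YEJG-FP was left out.

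Of the low members, *Cda*, *Upb1* and *Upp2* had larger values between the sites, with larger errors, and did not pass, while *Tymp* had a log2 fold change of -0.0063 (SE 0.18). In fat-pad lines *Cda* reached 21.4 ± 5.16 normalised counts (SD, n = 6 lines), and in lung lines 13.2 ± 6.75 (SD, n = 7 lines). Its log2 fold change was -0.72 (SE 0.36, adjusted p = 0.909, Benjamini-Hochberg adjustment, edgeR's quasi-likelihood test). Within YEJH, the 5 fat-pad lines lay at 19.3 to 26.8 and the 5 lung lines at 11.2 to 19.96. Only YEJH-M5 among the lung lines reached the fat-pad range by its mean. YEJH-M4 (19.05) lay below YEJH-FP5 (19.32) by less than the SD of their repeats. *Upb1* stood in the fat-pad lines at 5.96 ± 2.63 (SD, n = 6 lines) and in the lung lines at 3.30 ± 2.56 (SD, n = 7 lines), a log2 fold change of -0.85 (SE 0.64). Within YEJH, the fat-pad lines lay at 6.27 to 7.67 and the lung lines at 2.94 to 6.69. Only YEJH-M3 among the lung lines reached the fat-pad range by its mean. YEJH-M5 (5.55) lay below YEJH-FP1 (6.27) by less than the larger SD of their repeats. With YEJH-derived lines alone, the log2 fold changes were -0.48 (SE 0.18) for *Cda* and -0.59 (SE 0.23) for *Upb1*, with adjusted p of 0.526 and 0.543 in edgeR's quasi-likelihood test. *Upp2* was 10.6 ± 2.16 (SD, n = 6 lines) against 13.04 ± 2.31 (SD, n = 7 lines), a log2 fold change of 0.31 (SE 0.16).

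**Figure D2:**
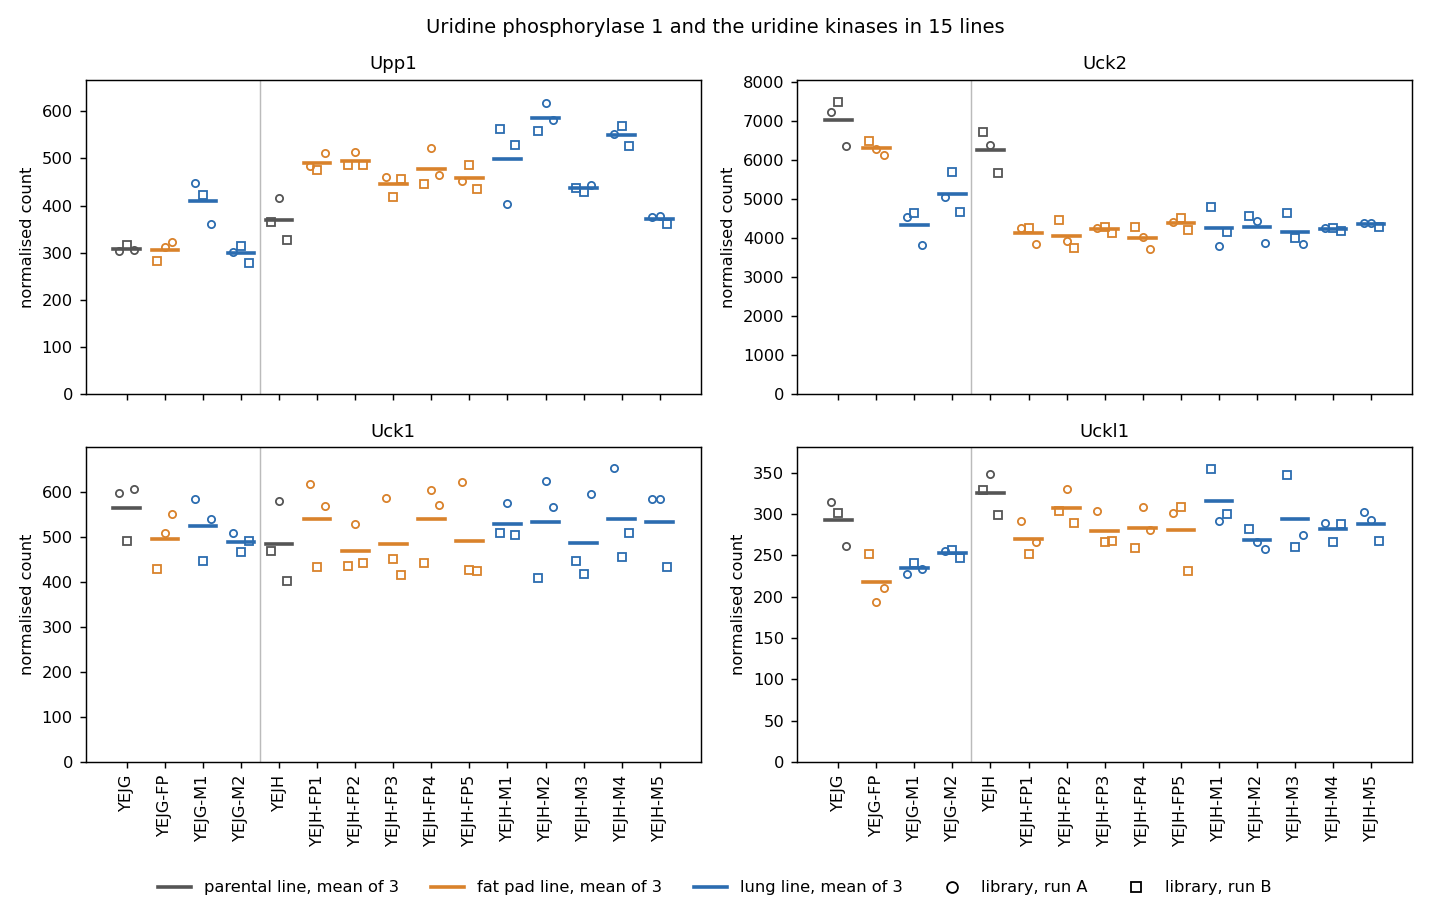
Normalised counts (vertical axis, from 0) of *Upp1* and the kinase genes in each of 15 lines, with circles for libraries of run A, squares for run B and bars for the mean of 3 repeats. *Uck2* is highest in YEJG, YEJG-FP and YEJH, *Upp1* is lowest in YEJG-M2 at 298, and the *Uck1* libraries of run A lie above those of run B in every line.

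Between the parental origins more of these enzymes passed than between the sites, and so did more of all genes. Whether the members passed more often than other genes was not tested. YEJG-derived lines were compared with YEJH-derived lines, with site as a covariate, and 5 of the 8 tested members passed, or 4 of 7 without *Upb1*, where 40.8% of 15815 genes did (3032 higher and 3421 lower in YEJG-derived lines, or 3823 higher and 2846 lower with library totals in place of TMM). *Upb1*, *Cda*, *Upp1* and *Uckl1* were lower and *Uck2* was higher in YEJG-derived lines. In YEJG-derived lines the summed epithelial markers were also lower, at 38224 to 57557 against 75626 to 101597 normalised counts, and fibroblast markers stood at 76.3 to 722 against 36.2 to 85.4. Endothelial markers, low throughout, stood at 0.307 to 1.01 against 2.80 to 10.6. The part of these markers in the differences of the members was not tested.

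*Upb1*, which releases beta-alanine from the uracil chain in the last step of breakdown, showed the widest gap. The 3 YEJG-derived lines had 2 reads in 9 libraries, both in YEJG-FP, and YEJG-M1 and YEJG-M2 had none. The 10 YEJH-derived lines had 173 reads, with a read in all 30 libraries and 7 to 23 reads per line. In normalised counts the 3 lines lay at 0, 0 and 0.708, and the 10 lines at 2.94 to 7.67 with a median of 6.47. The groups did not overlap, and how many of all genes part in this way was not counted. The ratio of reads per unit of library was 0.0387 (exact 95% interval 0.00465 to 0.142, counting error only). *Upb1* passed the filter on low counts only through the YEJH-derived lines, so that its call in edgeR's quasi-likelihood test is given as a description (adjusted p = 6.1e-05). Because 2 of the lines had no read, its fitted log2 fold change of -4.36 depends on the prior count of the fit. Between lung lines alone, with 0 reads against 69, the exact 95% interval put *Upb1* at least 7.43-fold lower in YEJG, counting error only. Taking 3 reads over the group as the floor instead gives 9.39-fold.

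*Cda* was lower as well. Its 3 YEJG-derived lines lay at 3.68 (YEJG-M2), 4.69 (YEJG-M1) and 12.9 (YEJG-FP) normalised counts, and its 10 YEJH-derived lines ran from 11.2 to 26.8 with a median of 19.6. Both YEJG lung lines lay below every other line, and YEJG-FP lay within the range of YEJH. The log2 fold change was -1.47 (SE 0.26, adjusted p = 7.2e-04, Benjamini-Hochberg adjustment, edgeR's quasi-likelihood test).

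**Figure D3:**
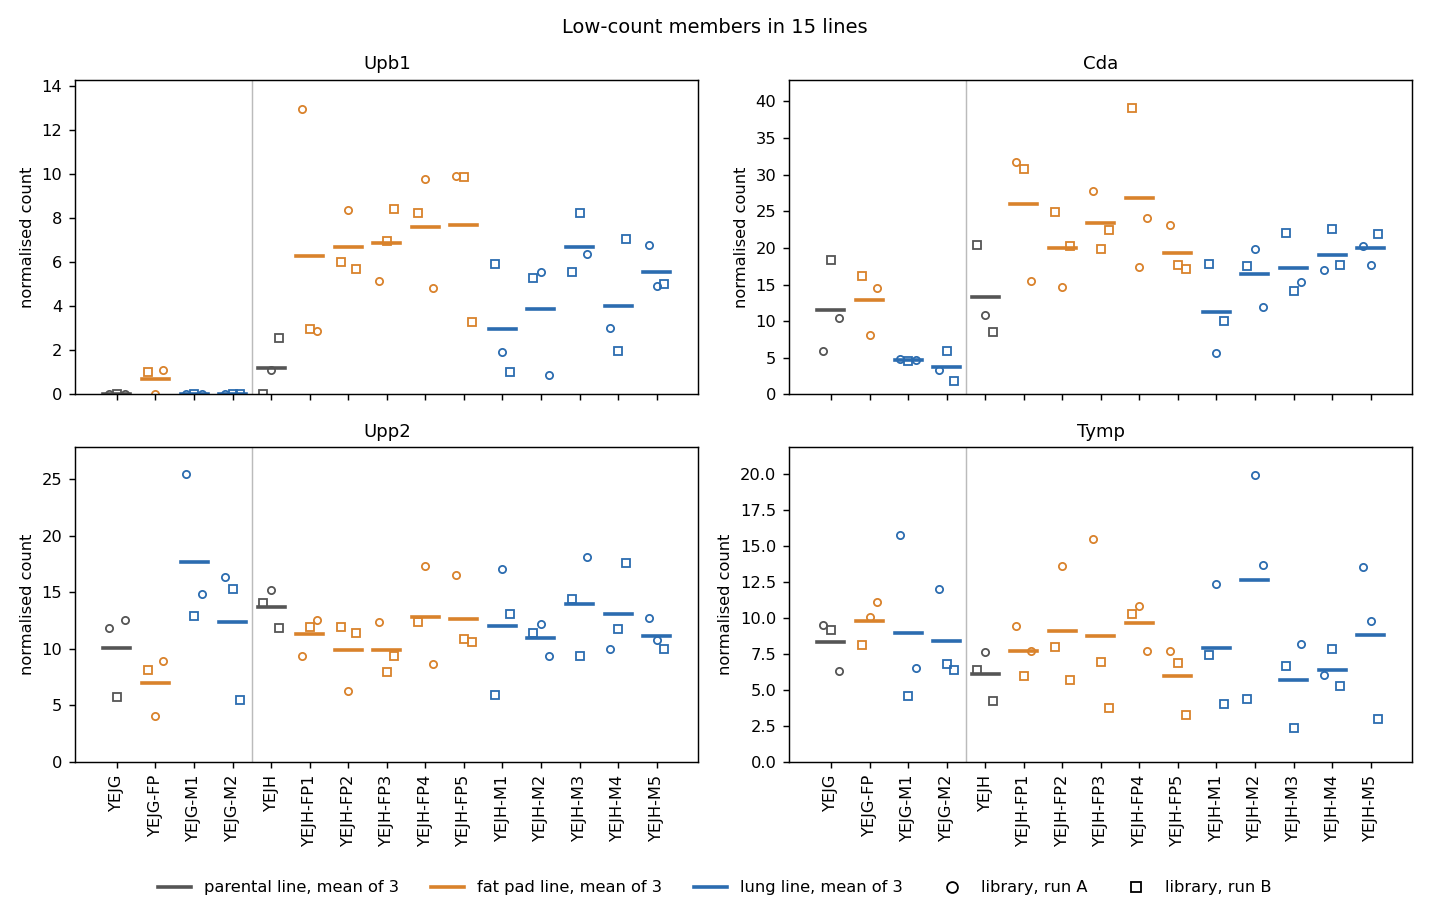
Normalised counts (vertical axis, from 0) of the low-count members in each of 15 lines, drawn with circles for libraries of run A, squares for run B and bars for the mean of 3 repeats. *Upb1* is at 0 in YEJG, YEJG-M1 and YEJG-M2 and at 2.94 to 7.67 in YEJH-derived lines, and *Cda* is lowest in YEJG-M1 and YEJG-M2.

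*Upp1*, which makes uracil, was at 298 (YEJG-M2), 306 (YEJG-FP) and 410.5 (YEJG-M1) normalised counts in YEJG-derived lines and from 371 to 586 in YEJH-derived lines, with a median of 484. YEJG-M1 lay above YEJH-M5, the lowest YEJH-derived line. The log2 fold change was -0.54 (SE 0.13, adjusted p = 0.0054, Benjamini-Hochberg adjustment, edgeR's quasi-likelihood test). *Uckl1* lay at 218, 234 and 253 in the 3 YEJG-derived lines, all below the 269 to 315 of the YEJH-derived lines (log2 fold change -0.30, SE 0.063, adjusted p = 0.0020, same test). How many of all genes part in this way was not counted. Between lung lines alone *Upp1*, *Uckl1* and *Uck2* did not pass (adjusted p = 0.108, 0.053 and 0.128, edgeR's quasi-likelihood test), with log2 fold changes of -0.47, -0.25 and 0.16.

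*Uck2* lay at 4346 (YEJG-M1), 5143 (YEJG-M2) and 6309 (YEJG-FP) normalised counts, against 4016 to 4384 in the YEJH-derived lines. The log2 fold change was 0.32 (SE 0.071, adjusted p = 0.0032, Benjamini-Hochberg adjustment, edgeR's quasi-likelihood test). YEJG-M1 lay within the range of YEJH-derived lines, and without YEJG-FP the log2 fold change was 0.16 with an adjusted p of 0.051 in edgeR's quasi-likelihood test. *Uck1* (-0.064, SE 0.054), *Upp2* (-0.072, SE 0.20) and *Tymp* (0.079, SE 0.22) did not pass. Within library run A the 4 called members that could be tested there, *Upp1*, *Cda*, *Uck2* and *Uckl1*, had log2 fold changes of -0.48, -1.38, 0.35 and -0.33, and within run B of -0.55, -1.45, 0.33 and -0.20, and all passed in both runs.

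The comparison of derived with parental lines asks what passage through a mouse goes with, at either site. *Uck2* alone passed out of the 8 tested, beside 7.77% of 16361 genes (580 higher and 692 lower in derived lines, or 730 and 502 with library totals). The genes called numbered 1272, or 627 without technical repeat 1 and 2149 without YEJG-FP. The comparison rests on 2 parental lines, 1 of each origin, and origin was a covariate. Summed basal markers, nearly all *Krt14*, were at 10526 to 19302 normalised counts in the parental lines and 1845 to 7001 in the derived lines. Fibroblast markers were at 27.2 to 43.1 in the parental lines and 36.2 to 722 in the derived lines, and neutrophil markers at 10.2 to 23.1 and 12.8 to 74.0. The part of these markers in the result was not tested. *Uck2* stood at 7241.6, 7494 and 6375 normalised counts in the 3 repeats of YEJG and at 6724, 6390.3 and 5672 in those of YEJH. The YEJH-derived lines had 4016 to 4384, so that all 10 lay below their parental line. Of the YEJG-derived lines, YEJG-M1 and YEJG-M2 lay below their parental line by more than the spread of repeats, and YEJG-FP, at 6131 to 6502 in its repeats, overlapped it. That spread is technical and does not cover variation between lines, so that these positions are a description.

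*Uck2* fell by 0.50 on the log2 scale in derived lines (SE 0.082, adjusted p = 0.0036, Benjamini-Hochberg adjustment, edgeR's quasi-likelihood test). The value was -0.54 in library run A and -0.47 in run B, -0.43 with fat-pad lines alone against parental lines and -0.57 with lung lines alone. Within a single origin the parental arm is 1 line, so that the values there, -0.56 within YEJH and -0.42 within YEJG, are a description. In the order of the 15 lines, the 10 YEJH-derived lines and YEJG-M1 followed each other by less than the spread of their repeats. The steps from YEJH-FP5 up to YEJG-M2, from YEJG-M2 to YEJH and from YEJG-FP to YEJG exceeded the larger SD of the repeats of the 2 lines.

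The other kinase genes did not pass. *Uckl1* stood at 292 in YEJG and 326 in YEJH against 275 ± 27.1 (SD, n = 13 lines) in derived lines, a log2 fold change of -0.24 (SE 0.072, adjusted p = 0.0504, Benjamini-Hochberg adjustment, edgeR's quasi-likelihood test), just outside the threshold of 0.05. DESeq2 gave an adjusted p of 0.012 for it. *Uck1* differed by -0.035 (SE 0.073) on the log2 scale. *Upp1* averaged 448 ± 84.9 (SD, n = 13 lines) in derived lines against 308 and 369 in the parental lines (log2 fold change 0.26, SE 0.15, adjusted p = 0.311, edgeR's quasi-likelihood test), and the value was 0.12 without YEJH and 0.39 without YEJG. *Upb1* had 0 reads in YEJG and 4 in YEJH, and its difference did not pass (adjusted p = 0.092, edgeR's quasi-likelihood test). It passed the filter on low counts only through the derived lines, and its fitted log2 fold change of 2.03 depends on the prior count, so that both are a description. Set against the 173 reads of the YEJH-derived lines, the rate in YEJH was 0.243 of theirs (exact 95% interval 0.0656 to 0.635, counting error only). *Cda*, *Upp2* and *Tymp* had log2 fold changes of -0.0074, -0.0043 and 0.28 and did not pass.

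**Figure D4:**
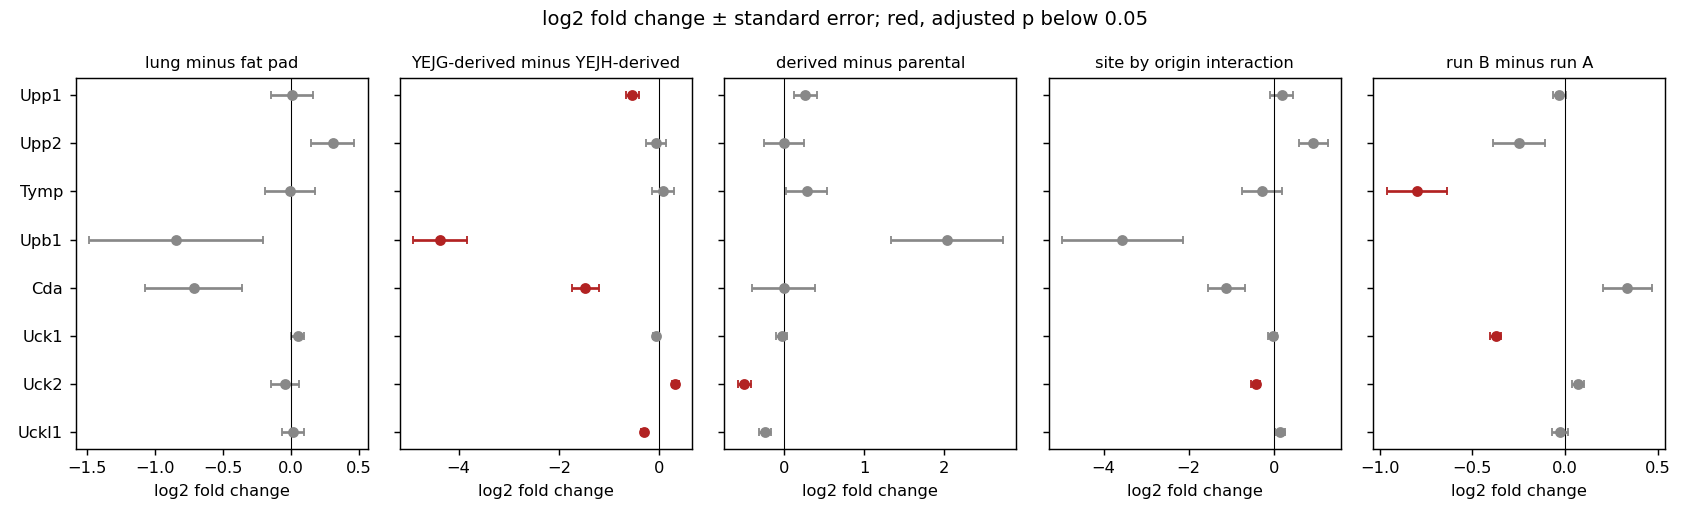
Log2 fold change of each tested member with its standard error in 5 comparisons from edgeR's quasi-likelihood test, with red marking an adjusted p under 0.05. No member is red for lung against fat pad, 5 are red for origin, *Uck2* alone for derived against parental lines and for the site by origin interaction, and *Uck1* and *Tymp* for the library run.

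Whether the difference between lung and fat-pad lines was itself different in the 2 origins was tested as an interaction, in which 15.5% of 15056 genes passed. *Uck2* was the only member to pass (-0.43 on the log2 scale, SE 0.097, adjusted p = 0.011, Benjamini-Hochberg adjustment, edgeR's quasi-likelihood test). In YEJG, the fat-pad line stood at 6309 normalised counts and the lung lines at 4346 and 5143. In YEJH, fat-pad lines stood at 4162 ± 149 (SD, n = 5 lines) and lung lines at 4265 ± 69.1 (SD, n = 5 lines). The YEJG side of this test rests on the single line YEJG-FP, so that site and line cannot be told apart there. Marker sums moved with it in YEJG, with fibroblast markers at 76.3 in the fat-pad line and 188 to 722 in the lung lines, epithelial markers at 57557 and 38224 to 43587, and basal markers at 7001 and 1845 to 2089 normalised counts. Neutrophil markers stood at 12.8 in the YEJG fat-pad line and 24.8 to 74.0 in the YEJG lung lines. In YEJH they stood at 22.5 to 51.5 and 21.4 to 54.2. Leukocyte markers stood at 28.0 and 41.6 to 62.5 in YEJG, and at 37.5 to 49.7 and 53.0 to 94.4 in YEJH. The part of the marker sums in the result was not tested. In the library runs taken separately, the *Uck2* value was -0.39 in run A (adjusted p = 0.068, edgeR's quasi-likelihood test) and -0.44 in run B (adjusted p = 0.0057, same test). *Upp2* (0.93, SE 0.34) and *Cda* (-1.11, SE 0.43) had larger values with larger errors and did not pass. *Upb1* did not pass either, and with 2 reads in YEJG-FP and 0 in the YEJG lung lines its fitted value has no meaning beyond those counts.

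Between the library runs 2 members differed, as read from the dates in the library names, with line as a covariate. *Uck1* was higher in run A, at 581 ± 36.6 normalised counts (SD, n = 22 libraries), than in run B, at 451 ± 32.1 (SD, n = 23 libraries), and the run A mean was the higher in 15 of 15 lines. The log2 fold change of run B against run A was -0.38 (SE 0.030, adjusted p = 2.9e-13, edgeR's quasi-likelihood test), where 15.9% of 14339 genes passed. *Tymp* fell from 10.7 ± 3.58 to 5.97 ± 2.05 normalised counts (log2 fold change -0.80, SE 0.16, adjusted p = 1.7e-04, edgeR's quasi-likelihood test), with run A higher in 12 of 15 lines. Reads that the counter set aside for poor alignment numbered at least 822828 in each run A library and 0 in each run B library, and their part in these differences was not tested. Each line has libraries in both runs. *Upp1* averaged 433 normalised counts in each run (log2 fold change -0.031, SE 0.035).

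For several members the repeats varied as much as the lines or nearly so, which limits what can be read from their order. The SD between the 15 lines was 4.09 times the median SD of the repeats for *Upp1*, 2.70 times for *Uck2*, 2.05 times for *Upb1*, 1.60 times for *Cda* and 1.37 times for *Uckl1*. It was 0.724 times for *Upp2*, 0.599 times for *Tymp* and 0.331 times for *Uck1*. In *Upp1*, the line order ran from YEJG-M2 (298), YEJG-FP (306) and YEJG (308) to YEJH-M4 (549) and YEJH-M2 (586). Of the 14 steps between neighbouring lines, those from YEJG to YEJH and from YEJH-M4 to YEJH-M2 exceeded the larger SD of the repeats. The 5 YEJH fat-pad lines lay close together (473 ± 21.3, SD, n = 5 lines), while the 5 YEJH lung lines spread from 371 to 586 (488 ± 86.0, SD, n = 5 lines).

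The genes with the pattern most like *Upp1* over the 10 YEJH-derived lines were *Dap*, *Cers6*, *Tcirg1*, *Dus2* and *Scin*. Their Pearson correlations with *Upp1*, on log2 normalised counts, were 0.96, 0.96, 0.95, 0.95 and 0.95. These were the highest of all tested genes over few lines, and are a description. Over all 15 lines the values were -0.030, -0.32, 0.17, -0.27 and 0.92, so that of the 5 only *Scin*, which encodes the actin-severing protein scinderin, kept a high value. Among the members the values over the 10 lines ran from -0.21 (*Cda*) to 0.29 (*Tymp*), leaving out *Upb1*, which was below the filter used here. Over all 15 lines they ran from -0.78 (*Uck2*) to 0.54 (*Cda*).

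The neighbouring steps of pyrimidine metabolism were read from 8 lists of 56 genes, all of which were found. Between lung and fat-pad lines 48 were tested and none passed. In derived against parental lines 2 of 51 passed, both upward, beside 7.77% of all genes, so that the lists as a whole held no more calls than the background. *Slc29a1*, the equilibrative nucleoside transporter that carries uridine across the plasma membrane, rose by 1.41 on the log2 scale (SE 0.22, adjusted p = 0.0025, Benjamini-Hochberg adjustment, edgeR's quasi-likelihood test). *Enpp1*, a surface enzyme that cleaves extracellular nucleotides, rose by 2.34 (SE 0.30, adjusted p = 8.2e-04, same test).

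Between the origins, 27 of the 51 tested genes of these lists passed, 14 higher and 13 lower in YEJG-derived lines, beside the 40.8% of all genes that passed. Of the 5 genes of de novo pyrimidine synthesis, the route that builds uridine monophosphate from small precursors, 4 were higher, namely *Dhodh* (0.38, SE 0.050), *Cad* (0.34, SE 0.045), *Umps* (0.31, SE 0.052) and *Ctps1* (0.17, SE 0.064) on the log2 scale, while the fifth, *Ctps2*, did not pass. The list had a median log2 fold change of 0.31, where that of all tested genes was 0.0032. Of the transporters, *Slc29a1* was higher (0.90, SE 0.14), and *Slc29a3* (-0.78, SE 0.15) and the low-count *Slc29a4* were lower. The nucleotidases *Nt5c* (-0.99, SE 0.12) and *Nt5e* (-0.83, SE 0.19), which form nucleosides from monophosphates inside and outside the cell, were lower, as was *Enpp1* (-1.91, SE 0.21), and the mitochondrial *Nt5m* (0.21, SE 0.061) was higher.

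In the handling of deoxypyrimidines, 4 of 8 genes were higher and 2 lower, beside the 40.8% of all genes called (3032 higher and 3421 lower). *Tk1*, the thymidine kinase of dividing cells, was lower (-0.72, SE 0.10), and the deaminase *Dctd* (0.51, SE 0.058), the kinase *Dtymk* (0.31, SE 0.051) and *Dut* (0.24, SE 0.053), which hydrolyses dUTP, were higher. Of 9 genes that use or supply ribose phosphate, 5 were lower and 1 higher in YEJG-derived lines, beside the same 40.8%, with *Rbks* (-0.77, SE 0.16), *Tkt* (-0.50, SE 0.11) and *Pgm2* (-0.16, SE 0.045) among the lower and *Prps1* (0.16, SE 0.045) the higher. Of the nucleotide kinases *Nme6* (0.32, SE 0.061), *Nme4* (0.55, SE 0.19) and *Nme1* (0.12, SE 0.043) were higher, and in purine salvage *Pnp* (-0.15, SE 0.052) was lower. Of the genes that use the products of uracil breakdown, *Abat* and *Agxt2* were below the filter in every comparison and *Aldh6a1* did not pass (0.17, SE 0.21).

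Of the 48 tested genes of these lists, 6 passed between the library runs, beside 15.9% of all genes. The largest were *Pnp2* (2.44, SE 0.12, higher in run B) and *Nme2* (-1.50, SE 0.031, lower in run B). Each has a near-identical neighbouring gene, *Pnp* and *Nme1*, so that the counts of both are uncertain, and *Nme1* differed by 0.019 (SE 0.022) and did not pass. The part of shared reads in the run differences was not tested. *Tk1* (-0.16, SE 0.033), *Dhodh* (0.12, SE 0.036), *Pnp* (0.13, SE 0.031) and *Dctd* (0.11, SE 0.035) differed less.

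In the site by origin interaction, 10 of 48 tested genes of the lists passed, 4 upward and 6 downward in YEJG against YEJH, beside 15.5% of all genes. They included the transporters *Slc29a1* (0.78, SE 0.19) and *Slc29a2* (-0.72, SE 0.19), the nucleotidases *Nt5c* (-0.77, SE 0.12) and *Entpd5* (0.51, SE 0.11), *Ctps2* (0.48, SE 0.11), which makes CTP, and *Tk1* (-0.63, SE 0.11) on the log2 scale. The others were *Nme4* (-1.01, SE 0.29) and 3 genes of ribose phosphate use, *Tkt* (-0.73, SE 0.083), *Pgm1* (0.64, SE 0.17) and *Rpe* (-0.28, SE 0.079). These values rest on YEJG-FP in the same way as that of *Uck2*.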

How the data were processed

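RNA from cultured lines was made into libraries with the TruSeq RNA v2 kit, which does not mark strand, and sequenced on a NextSeq500. The table that the authors deposited holds counts per gene for each library, not normalised. The submitters' processing notes name FastQC, HISAT2, SAMtools 1.2 and HTSeq and, although the samples are mouse, the build GRCh38. The annotation release is not given in the sources used here. Of 54838 gene identifiers, 50764 matched GENCODE on GRCm39, which gave names, positions and transcript lengths. Rows that name no gene were kept out of library sizes and tests, and held 31.6% to 43.3% of the reads of a library. The highest share was that of YEJH-M3 repeat 2, and the next highest, in YEJH-FP1 repeat 1, was 36.0%.

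Counts of the 3 technical repeats were summed per line and tested with edgeR 4.0.16 (TMM, filterByExpr, quasi-likelihood test, Benjamini-Hochberg adjustment, threshold 0.05) in R 4.3.3. Lines were the replicates. The SE of a log2 fold change is its size divided by the square root of F. Library runs were compared over 45 libraries with line as a covariate, so that those p-values measure technical spread. Normalised counts used the 14339 genes kept over all libraries, and correlations a pseudocount of 1. DESeq2 1.42.0, and voom in limma 3.58.1, served as alternatives. The fits were tested on simulated data. Figures were drawn with matplotlib 3.10.9.

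The members and lists were chosen with earlier results of these data known. Named were all 10 members, up to 4 called genes of each list with the smallest p per comparison, and the 5 genes most like *Upp1*. List genes named that did not pass were chosen after their values were seen. The library name of YEJG-M1 repeat 1 points to another line, and its title was followed.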

Additional observations from a re-analysis of the deposited data

Results flagged for a closer look

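For each tested member the fat-pad lines, the lung lines and the YEJH lines of each site were examined, as 32 groups of 5 to 7 lines. In 5 of them a line stood apart from its nearest neighbour by more than Dixon's 95% limit on the gap. Independent groups from a single population would give about 1.6 by chance. These groups overlap and some mix the origins, so that the 2 counts cannot be compared. YEJG-FP stood apart for 3 members. It was the lowest of the 6 fat-pad lines in *Upp1*, at 306 normalised counts with the next line at 445, and the lowest in *Upb1*, at 0.708 with the next line at 6.27. It was the highest of them in *Uck2*, at 6309 with the next line at 4384. The other fat-pad lines all descend from YEJH. *Upb1* passed the filter on low counts only through YEJH-derived lines, so that its place here is a description. Among the 7 lung lines, YEJG-M2 was the highest in *Uck2*, at 5143 with the next line at 4357. Among the 5 YEJH lung lines, YEJH-M3 was the lowest in *Uck1*, at 487 with the next line at 530.0, a gap smaller than the SD of the repeats of YEJH-M3 (95.5).

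In the interaction test of site by origin, *Uck2* had a value of -0.43 on the log2 scale, as the lung against fat-pad difference in YEJG minus that in YEJH. The YEJG fat-pad arm is the single line YEJG-FP, so that site and line cannot be told apart, and the value was -0.39 both in run A and without technical repeat 1, where it did not pass.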

How the results depend on the processing

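Beside the 13 derived lines, precision is limited by 2 parental lines, by 3 YEJG-derived lines of which 1 is from the fat pad, and by counts of at most 38 reads per library for *Cda*, *Upp2*, *Tymp* and *Upb1*. Fits within a single origin, and those without YEJG or YEJH, have a parental arm of 1 line and are a description. Leaving these aside, the call of *Uck2* in derived against parental lines held in every alternative. Its value ranged from -0.57 to -0.43 over single lines or repeats left out, YEJG and YEJH among them. The call of *Cda* between origins held in every alternative that could be fitted, and those of *Upp1* and *Uckl1* in all but lung lines alone. *Uckl1* in derived against parental lines also passed in DESeq2, with fat-pad and parental lines and without some single lines. It passed in limma too, where n is of libraries and the repeats of a line have a correlation shared by all genes. That call was not taken as added support. *Upb1* in derived against parental lines also passed without technical repeat 3 and with fat-pad and parental lines. It passed the filter on low counts only through the derived lines, so that these calls support nothing. In the interaction *Uck2* did not pass in run A or without technical repeat 1 (both -0.39), *Upp2* passed without YEJG-M2 (1.16) or technical repeat 3 (1.47), and *Cda* passed without YEJH-M1 (-1.24) or technical repeat 2 (-1.55). Where a value moved, the cause was not tested.

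The number of genes called for lung against fat pad was 0, and 21 with DESeq2. It was 7 with YEJH-derived lines only, 3 with origin as a covariate and 1 in run A. With single lines or repeats left out it was 0 to 1, the 1 being without YEJG-M1. In limma on single libraries, with the technical repeat number as replicate block, it was 75. Here and below, that fit keeps the libraries apart and gives the repeats of a line a single correlation, shared by all genes. Its n is of libraries and so exceeds the number of lines. For derived against parental lines it was 1272, and 2027 with DESeq2, 2604 in limma with the replicate block, 685 in run B, 566 with YEJH lines only and 202 without the origin covariate. Leaving out single lines or repeats gave 141 (without YEJG) to 2281 (without YEJH), with 2149 without YEJG-FP and 627 without technical repeat 1. Chosen after seeing the data were fat-pad and parental lines, with 1948, and lung and parental lines, with 163. The fit of YEJG lines only was also chosen then. Between the origins and in the interaction the counts stayed within 1.5 times, at 4901 to 7208 and 1634 to 2791 with single lines or repeats left out.

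Signs turned among members that had not passed in the comparison. For lung against fat pad, run A gave *Upp1* -0.050, *Tymp* 0.074 and *Uckl1* -0.065, limma gave *Upp1* -0.014, and YEJH-derived lines gave *Tymp* 0.046 and *Uck2* 0.024. Single lines or repeats left out gave *Upp1* -0.085 to 0.090, *Tymp* -0.11 to 0.060, *Uck2* -0.081 to 0.071 and *Uckl1* -0.043 to 0.051. Between the origins, run A gave *Upp2* 0.051 and *Tymp* -0.0064, lung lines alone *Upp2* 0.22 and *Tymp* -0.019, no site covariate *Upp2* 0.012, and YEJG-M1 repeat 1 left out *Tymp* -0.043. Leaving out single lines or repeats gave *Upp2* -0.33 to 0.22 and *Tymp* -0.063 to 0.36. For derived against parental lines, library totals gave *Upp2* 0.034, *Cda* 0.038 and *Uck1* 0.0084, run A *Cda* 0.23, run B *Upp2* 0.17 and *Tymp* -0.12, and limma *Cda* 0.23. YEJH lines gave *Cda* 0.66 and *Uck1* 0.10, no origin covariate *Upp2* 0.0079 and *Cda* 0.48, and YEJG-M1 repeat 1 left out *Cda* 0.0071. YEJG lines gave *Upp2* 0.25, fat-pad and parental lines *Cda* 0.60, and lung and parental lines *Upp2* 0.14. Leaving out single lines or repeats gave *Upp2* -0.19 to 0.24, *Cda* -0.73 to 0.66 and *Uck1* -0.19 to 0.11. In the interaction, *Uck1* was 0.0045 with library totals, 0.019 in run A, 0.059 in run B and 0.0032 in limma, and *Uckl1* was -0.14 in run B. Leaving out single lines or repeats gave *Upp1* -0.056 to 0.40, *Uck1* -0.22 to 0.10, *Tymp* -1.06 to 0.12 and *Uckl1* -0.0093 to 0.32.

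Of 96 mean levels recomputed from 1 run or with library totals, 12 moved beyond the SD between lines, all between the runs. *Uck1* was at 592 and 464 in parental, 576 and 434 in fat-pad and 583 and 456 in lung lines in run A and run B. *Tymp* was at 10.9 and 6.93 in fat-pad and 11.1 and 5.05 in lung lines, and *Cda* at 9.53 and 16.4 in parental lines. The numbers that fat-pad and lung lines share were not taken as pairs in the main fit. Deviations of same-numbered YEJH lines correlated at -0.11 to 0.069, and 0 of 10 lines correlated best with its own number. These values do not show whether such lines came from 1 mouse. With the shared line number as replicate block, 0 genes were called and 878 had an unadjusted p under 0.05.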
